A study of Mus musculus with 12 samples.

Results

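Transcripts of p53 and 9 of its best known target genes were measured in the striatum and cortex of R6/2 mice, a model of Huntington’s disease (HD). The 10 genes were picked by symbol out of 23238 symbols in the count tables, and the question put to them was whether a higher cortical Trp53 level after symptom onset came with higher levels of its targets. The cortical level of Trp53 in post-symptomatic HD mice was the value that led to this choice, so it is described here and not tested. All 10 genes passed the filter on low counts.

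The mice were HD mice and their wild-type (WT) littermates, at 8 weeks (pre-symptomatic) and at 13 weeks (post-symptomatic). The R6/2 transgene is exon 1 of human HTT with an elongated CAG tract, so the mice model a fragment of the mutant protein beside their own mouse Htt. Each of the 4 HD groups (striatum or cortex, before or after onset) had 2 libraries, and each of the 4 WT groups had 1. The 12 libraries held 8814386 to 12091201 counts from the 3′ ends of polyadenylated RNA, and levels are given as CPM, the count scaled to library size by the trimmed mean of M-values (TMM). Whether a striatal and a cortical library of equal number share a mouse, and whether replicates are separate mice, is not in the labels, so p-values measure the spread between these libraries only.

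The protein p53, encoded by Trp53, is a transcription factor that is kept low in unstressed cells and accumulates after DNA damage, mainly because it is degraded less. MDM2 marks it for degradation and MDM4 blocks its activity, and since Mdm2 is itself a p53 target the pair forms a feedback loop. Its other targets halt the cell cycle, assist repair, limit oxidative stress or prepare cell death, and p53 has been tied to neuronal loss in HD models.

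Some libraries differed from the others in ways that bear on every value below. Replicate 2 of pre-symptomatic HD striatum held 19990 CPM of 8 oligodendrocyte markers against 3216 in replicate 1, 2300 against 7285 CPM of 9 striatal neuron markers, and 1601 against 133.3 CPM of 4 thalamic neuron markers. Its striatal neuron markers were nonetheless above the 1382 and 1414 CPM of post-symptomatic HD striatum. The precursor of ribosomal RNA, Rn45s, took 10.5% to 15.2% of the counts in HD libraries and 4.32% to 5.62% in WT libraries. Xist, transcribed from the inactive X chromosome of female cells, was at 0.209 to 6.79 CPM in replicate 1 and at 113 to 178 CPM in replicate 2 of the HD groups. In WT mice it was at 70.0 and 138 CPM at 13 weeks and at 0.424 and 1.81 CPM at 8 weeks. The part of these differences in the results was not tested.

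Promoter windows of Trp53 and of its targets Mdm2, Cdkn1a and Ccng1 are shown as stretches that were searched for p53 half-sites. The windows run from 250 bases before to 50 bases after a transcription start and come from RefSeq (GRCm38.p6). Capitals mark exact matches to the 10-base p53 half-site, searched on the strand shown, which covers both because the consensus is its own reverse complement. The Trp53 window lies at chr11:69580109-69580408 (+ strand), Mdm2 at chr10:117710709-117711008 (− strand), Cdkn1a at chr17:29090729-29091028 (+ strand) and Ccng1 at chr11:40755237-40755536 (− strand).
Trp53: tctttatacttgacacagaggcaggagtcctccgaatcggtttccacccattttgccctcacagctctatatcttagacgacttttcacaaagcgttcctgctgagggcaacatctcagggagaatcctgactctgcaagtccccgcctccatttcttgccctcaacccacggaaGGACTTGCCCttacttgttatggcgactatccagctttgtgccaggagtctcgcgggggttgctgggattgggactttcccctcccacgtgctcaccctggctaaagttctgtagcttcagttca
Mdm2: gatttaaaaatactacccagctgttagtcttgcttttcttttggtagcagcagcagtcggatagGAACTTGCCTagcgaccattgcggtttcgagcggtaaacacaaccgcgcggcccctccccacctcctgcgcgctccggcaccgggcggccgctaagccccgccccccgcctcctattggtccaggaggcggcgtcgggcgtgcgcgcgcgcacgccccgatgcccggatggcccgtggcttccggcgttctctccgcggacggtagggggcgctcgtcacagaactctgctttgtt
Cdkn1a: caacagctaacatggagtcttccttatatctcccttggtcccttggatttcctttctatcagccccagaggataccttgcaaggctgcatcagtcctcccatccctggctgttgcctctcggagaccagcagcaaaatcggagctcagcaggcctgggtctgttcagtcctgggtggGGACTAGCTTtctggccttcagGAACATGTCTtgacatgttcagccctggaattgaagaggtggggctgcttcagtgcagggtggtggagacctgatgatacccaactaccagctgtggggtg
Ccng1: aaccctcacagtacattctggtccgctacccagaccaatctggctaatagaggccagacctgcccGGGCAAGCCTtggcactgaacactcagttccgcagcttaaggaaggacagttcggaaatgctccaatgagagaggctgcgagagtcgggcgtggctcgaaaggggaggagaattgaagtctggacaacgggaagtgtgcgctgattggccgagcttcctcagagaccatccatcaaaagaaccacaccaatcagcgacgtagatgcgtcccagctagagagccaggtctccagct
The match began 75 bases before the start of Trp53, 186 before that of Mdm2 and 185 before that of Ccng1. The Cdkn1a window shown held a pair of matches, beginning 73 and 51 bases before that start and separated by 12 bases. The other Cdkn1a window, at chr17:29093519-29093818, held no match. The table held 12 windows for 9 of the 10 genes, and Zmat3 had no entry. In all, 6 of the 12 windows held a match, each of a different gene. Among these genes were Sesn1 (173 bases before 1 of its starts) and Gadd45a (40 bases before its start). Of all 32851 windows, 8.36% held a match. A pair no more than 13 bases apart occurred in 0.0731% of all windows. These matches are descriptions of the letters and not evidence of binding, and p53 can also act from sites outside such windows.

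Trp53 (chromosome 11, 69580359 to 69591873 on the + strand of GRCm38) was a low transcript, with 35 to 159 counts per library. In cortex it stood at 3.06 CPM in the 8-week WT library, 4.99 CPM in the 13-week WT library, 4.29 and 10.2 CPM in pre-symptomatic HD mice, and 11.6 and 14.1 CPM in post-symptomatic HD mice. Both post-symptomatic HD libraries were thus above the other 4 cortical libraries, with a mean of 12.8 ± 1.79 CPM (SD, n = 2). Counting error alone gave the lower of these libraries a 95% Poisson interval of 9.70 to 13.7 CPM, which overlapped that of pre-symptomatic HD replicate 2, at 8.26 to 12.5 CPM. Against the WT cortical library of 13 weeks the fitted log2 fold change was 1.35 (SE 0.66), and against pre-symptomatic HD cortex it was 0.82 (SE 0.51). Without pre-symptomatic HD cortex replicate 1 the latter was 0.32, and without replicate 2 it was 1.56. As these values chose the gene, no p-value is given for them.

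The striatum did not show this order. Trp53 stood at 5.43 and 5.25 CPM in the 8-week and 13-week WT libraries, 6.75 and 4.50 CPM in pre-symptomatic HD mice, and 3.25 and 7.29 CPM in post-symptomatic HD mice. The lowest and the highest striatal value were the 2 replicates of the post-symptomatic HD group, and its log2 fold change against WT was 0.00 (SE 0.64, adjusted p = 1 by the edgeR quasi-likelihood test). The change from the pre-symptomatic to the post-symptomatic stage in striatum was -0.11 (SE 0.53, adjusted p = 0.966 by edgeR). It lay 0.92 (SE 0.74) below the cortical change on the log2 scale, a difference not tested for the same reason as above. Over both regions, Trp53 in pre-symptomatic HD mice differed from 8-week WT mice by 0.54 (SE 0.52, adjusted p = 0.710 by edgeR). That value rested on the 8-week WT libraries, being 1.39 without the striatal one and -0.09 without the cortical one. In WT mice the ages differed by 0.24 (SE 0.59).

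**Figure D1:**
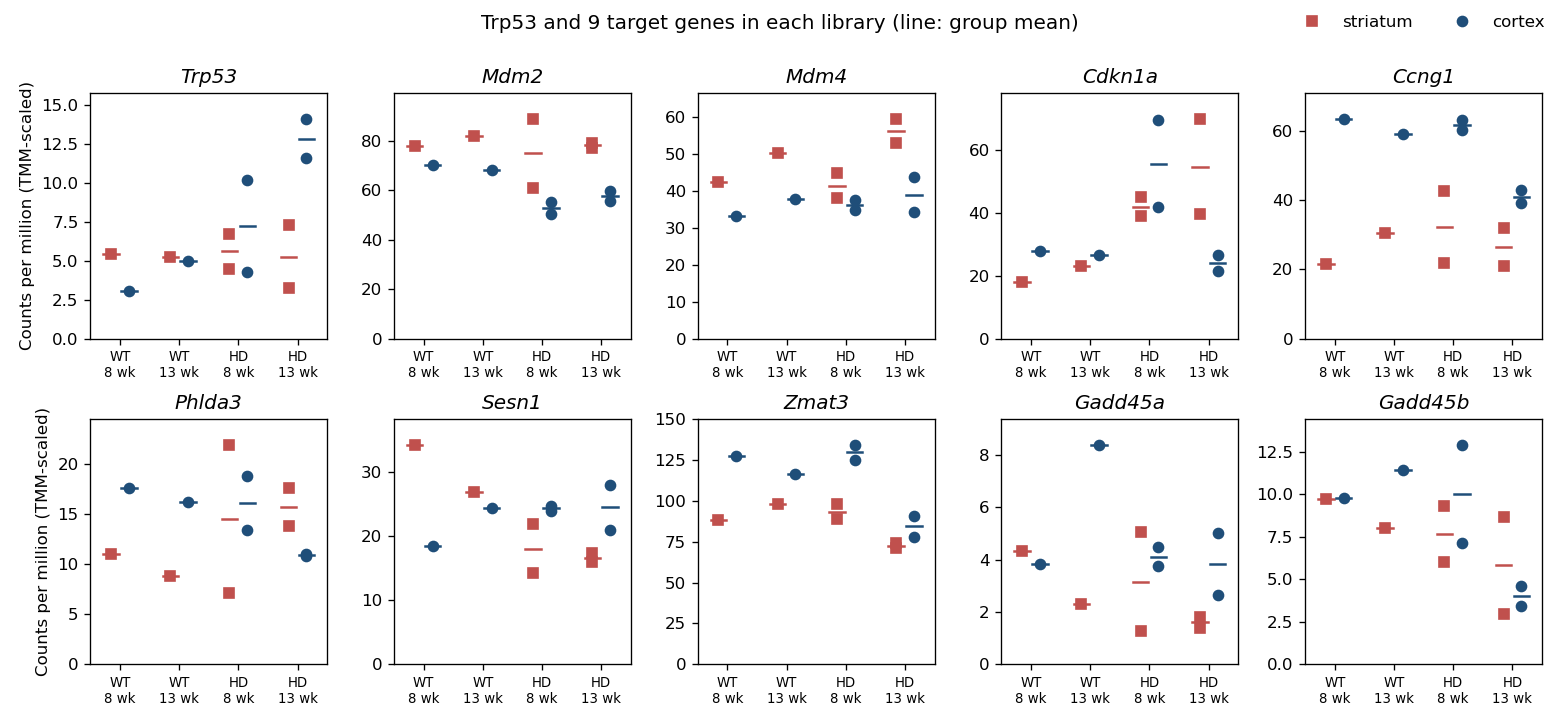
CPM (TMM-scaled, linear axis from 0) of Trp53 and its 9 targets in each of the 12 libraries by genotype and age, with striatum as red squares, cortex as blue circles and a line at each group mean. Trp53 in post-symptomatic HD cortex lies at 11.6 and 14.1 CPM, above the other cortical points, and the Zmat3 points of post-symptomatic HD mice lie below those of the other groups of their region.

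Wrap53 lies head to head with Trp53 and its antisense transcripts can reach the first exon of Trp53. In GENCODE M21 no annotated gene overlaps Trp53 on either strand, and the counts come from 3′ ends. The level of Wrap53 is given beside it. In cortex Wrap53 was at 6.91 and 7.18 CPM in post-symptomatic HD mice, 3.66 and 6.74 CPM in pre-symptomatic HD mice, and 7.52 and 8.74 CPM in the WT libraries of 13 and 8 weeks. The post-symptomatic HD libraries were below both WT libraries and above both pre-symptomatic HD libraries, and the part of Wrap53 reads in the Trp53 level was not tested. The strand setting of the read counting is not given in the sources used here. GENCODE M21 also annotates the pseudogenes Trp53-ps and Mdm4-ps, and how reads shared with them were assigned is not given either.

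The 9 targets were set beside Trp53 in the cortex. Between post-symptomatic HD cortex and the WT library of that age, 0 of the 9 targets were higher in both HD libraries (37.7% of 15337 genes were) and 7 were lower in both (37.7% of genes). These were Mdm2, Cdkn1a, Ccng1, Phlda3, Zmat3, Gadd45a and Gadd45b, while the HD libraries lay on either side of the WT library for Mdm4 and Sesn1. For Cdkn1a the nearer of the HD libraries was at 26.6 CPM against 26.7 CPM in WT. Against all 4 other cortical libraries, 0 of the 9 were higher in both post-symptomatic HD libraries (16.3% of genes) and 5 were lower in both, namely Cdkn1a, Ccng1, Phlda3, Zmat3 and Gadd45b (18.2% of genes). The median log2 fold change of the 9 targets against WT was -0.47, and that of all genes was 0.01. In this comparison 0.111% of all genes passed the adjusted threshold. Because it is the comparison that chose the genes, nothing is read from these counts.

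**Figure D2:**
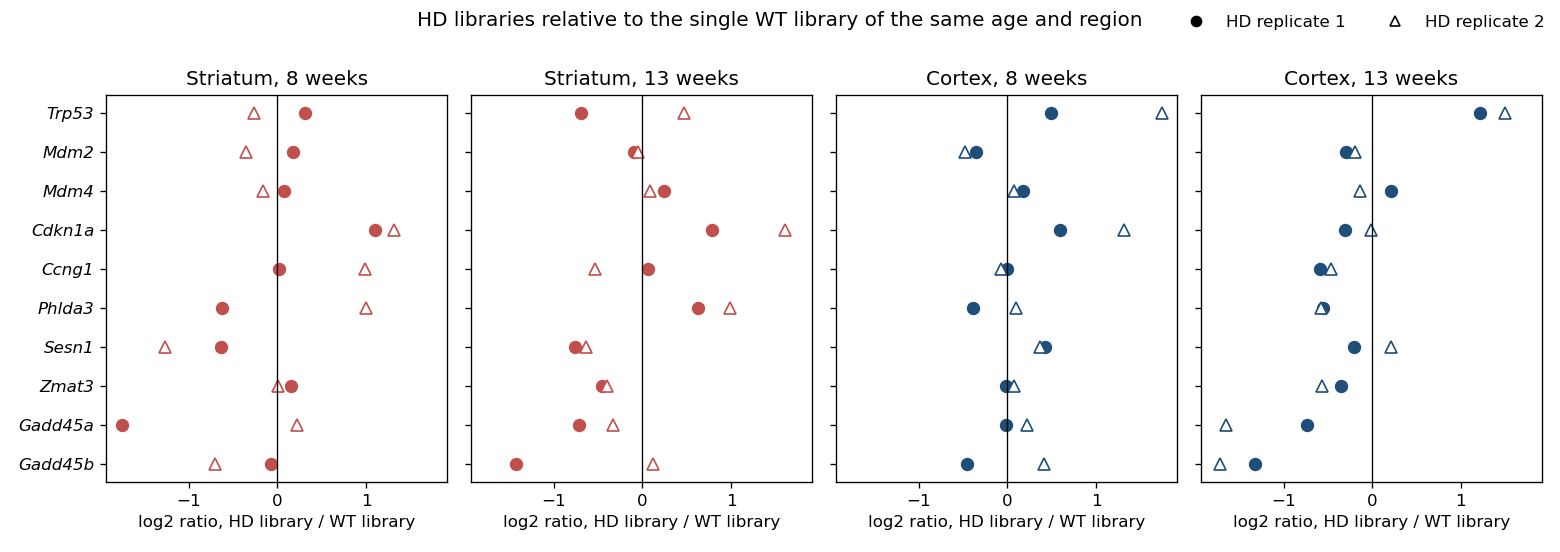
Log2 ratio of each HD library to the single WT library of its age and region, for Trp53 and its 9 targets, with HD replicate 1 as filled circles and replicate 2 as open triangles. In cortex at 13 weeks Trp53 lies at 1.22 and 1.5 whereas Gadd45b lies at the far left of the panel, and Cdkn1a lies to the right of 0 in every panel but that one.

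The inhibitors of p53 were among the better covered members, with 463 to 860 counts per library for Mdm2 and 320 to 639 for Mdm4. Mdm2, the ubiquitin ligase of p53, stood in cortex at 70.3 and 68.4 CPM in WT mice of 8 and 13 weeks, 55.3 and 50.4 CPM in pre-symptomatic HD mice, and 55.7 and 59.7 CPM in post-symptomatic HD mice. All 4 HD cortical libraries were below both WT cortical libraries, which held for 13.7% of genes, and 0 targets had them all above (15.2% of genes). The summed level of the 8 oligodendrocyte markers split in the same way in cortex, with 2261 to 2708 CPM in HD mice and 4059 and 4279 CPM in WT mice. So did cortical excitatory neuron markers (743.2 to 1254 against 1332 and 1367 CPM) and striatal neuron markers (134.4 to 253.6 against 277.8 and 372.1 CPM). Endothelial and thalamic neuron markers split the other way, and the astrocyte and microglia sums overlapped. The part of cell types in the Mdm2 level was not tested. In striatum Mdm2 stood at 78.2 and 82.1 CPM in WT mice, 88.9 and 61.1 CPM in pre-symptomatic and 77.1 and 79.4 CPM in post-symptomatic HD mice, with no such separation.

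In HD mice Mdm2 was higher in striatum than in cortex, by a log2 fold change of 0.51 (SE 0.13, adjusted p = 0.0336 by edgeR), and it was the 1 target of 9 called between the regions, where 10.6% of 14392 genes were called. Its 4 striatal HD libraries were all above the 4 cortical ones (5.19% of genes), and 0 of the 9 targets had them all below (8.68% of genes). The call was lost in 7 of the 8 fits that left out 1 HD library, at adjusted p-values up to 0.124, and held without pre-symptomatic HD striatum replicate 2 (adjusted p = 0.00542). Mdm4, which binds p53 and masks its activation domain, showed a regional difference of 0.41 (SE 0.14, adjusted p = 0.0985 by edgeR). Its striatal level in post-symptomatic HD mice, 59.4 and 53 CPM, was above the other 4 striatal libraries, at 38.0 to 50.2 CPM (10.2% of genes), and its log2 change between the stages there was 0.44 (SE 0.20, adjusted p = 0.419 by edgeR). Over both regions, the change between the stages was 0.28 (SE 0.14, adjusted p = 0.281) for Mdm4 and 0.10 (SE 0.13, adjusted p = 0.711) for Mdm2, both by edgeR. A transcript on the other strand, Gm29257, overlaps Mdm4.

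Cdkn1a encodes p21, the inhibitor of cyclin-dependent kinases through which p53 halts the cell cycle. In striatum it stood at 18.2 and 23.0 CPM in WT mice of 8 and 13 weeks, 39.1 and 45.1 CPM in pre-symptomatic HD mice, and 39.6 and 70.0 CPM in post-symptomatic HD mice. All 4 HD striatal libraries were above both WT libraries, which held for 12.7% of genes. The log2 fold change against WT was 1.25 (SE 0.41, adjusted p = 0.206 by edgeR) after onset and 1.22 (SE 0.41) before it. Without post-symptomatic HD striatum replicate 2 the former was 0.78.

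In cortex Cdkn1a stood at 27.9 and 26.7 CPM in WT mice of 8 and 13 weeks, 42.1 and 69.6 CPM in pre-symptomatic HD mice, and 21.5 and 26.6 CPM in post-symptomatic HD mice. The pre-symptomatic HD libraries were thus the high ones, and the post-symptomatic ones, where Trp53 was highest, were the lowest of the region. The cortical change between the stages was -1.22 on the log2 scale (SE 0.32, adjusted p = 0.138 by edgeR), where 0.593% of genes were called. It passed the threshold with DESeq2 (adjusted p = 0.0249). Its size varied with the library left out, being -1.54 without pre-symptomatic HD cortex replicate 1 and -0.82 without replicate 2. Without either replicate of pre-symptomatic HD striatum it stayed at -1.22, as these libraries enter only through the shared estimate of the spread. In striatum the change was 0.37 (SE 0.32, adjusted p = 0.694 by edgeR). The cortical change minus the striatal one was -1.59 (SE 0.45), with an unadjusted p of 0.00606 and an adjusted p of 1 by edgeR. For that difference 0 of 15337 genes were called by edgeR and 12 by DESeq2, with 521 genes at an unadjusted p under 0.05. Over both regions, pre-symptomatic HD mice exceeded 8-week WT mice by 1.08 (SE 0.45, adjusted p = 0.331 by edgeR). An annotated transcript on the other strand, AC167363.2, overlaps Cdkn1a.

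Glucocorticoids also induce genes in brain, and 9 such genes were summed beside Cdkn1a. Their sum was 206.4 and 310.2 CPM in WT striatum of 8 and 13 weeks, 269.7 and 499.4 CPM in pre-symptomatic HD striatum and 267.5 and 344.3 CPM in post-symptomatic HD striatum. In cortex it was 251.8 and 350.0 CPM in WT mice, 329.5 and 329.4 CPM in pre-symptomatic and 303.0 and 292.8 CPM in post-symptomatic HD mice. All 9 were positive in pre-symptomatic HD against 8-week WT mice, with a median log2 fold change of 0.39, and 0 of them were called by edgeR. By region, 6 were positive in striatum and 8 in cortex. All 9 were also positive in 13-week against 8-week WT mice, with a median of 0.43. Their part in the Cdkn1a levels was not tested.

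Ccng1 encodes cyclin G1, which recruits a phosphatase to MDM2. In cortex it stood at 63.3 and 59.1 CPM in WT mice of 8 and 13 weeks, 63.1 and 60.2 CPM in pre-symptomatic HD mice, and 39.1 and 42.8 CPM in post-symptomatic HD mice. The post-symptomatic HD libraries were below the other 4, which lay within 59.1 to 63.3 CPM. Striatal values overlapped between groups, from 21 to 42.5 CPM, and the highest of them was above the lowest cortical value. The change between the HD stages was -0.60 (SE 0.31, adjusted p = 0.445) in cortex and -0.44 (SE 0.22, adjusted p = 0.281) over both regions, both by edgeR. Without pre-symptomatic HD striatum replicate 1 the latter was -0.63, and without replicate 2 it was -0.26. In HD mice Ccng1 was at -0.74 in striatum relative to cortex (SE 0.22, adjusted p = 0.0614 by edgeR, 0.0170 by DESeq2). This regional value was -0.92 without pre-symptomatic HD striatum replicate 2 and -0.54 without replicate 1.

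Zmat3, a zinc finger protein that binds RNA and acts in p53-dependent growth arrest, was the 1 target of 9 that changed between the HD stages over both regions, where 6.19% of 14392 genes were called and 4.36% were called lower. In cortex it stood at 127 and 116 CPM in WT mice of 8 and 13 weeks, 125 and 134 CPM in pre-symptomatic HD mice, and 90.6 and 77.9 CPM in post-symptomatic HD mice. In striatum it stood at 88.3 and 97.7 CPM in WT mice, 97.7 and 89.0 CPM in pre-symptomatic HD mice, and 71.0 and 74.2 CPM in post-symptomatic HD mice. The post-symptomatic HD libraries were the lowest pair of both regions, and it was the 1 target lower after onset in both regions (10.4% of genes), with 0 higher in both (9.15% of genes). In striatum 12.6% of genes had the post-symptomatic HD libraries below the other 4. Zmat3 fell by 0.49 on the log2 scale (SE 0.11, adjusted p = 0.0345 by edgeR), to 0.714 of its pre-symptomatic level.

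The size of the Zmat3 change was steadier than its call. Leaving out each HD library in turn gave log2 fold changes from -0.54 to -0.42, with the call lost in 6 of the 8 fits (adjusted p-values from 0.00896 to 0.134). It held only without 1 or the other replicate of pre-symptomatic HD striatum. DESeq2 gave -0.50 (adjusted p = 0.00210). An exact permutation test of the stage labels within regions gave a two-sided p of 0.0556, the smallest that its 36 arrangements allow. By region the change was -0.63 in cortex (SE 0.16, adjusted p = 0.127) and -0.37 in striatum (SE 0.16, adjusted p = 0.391) by edgeR. Before onset the difference from WT mice over both regions was 0.05 (SE 0.13, adjusted p = 0.909 by edgeR), and after onset it was -0.43 in striatum (SE 0.19, adjusted p = 0.351 by edgeR).

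Cell type markers moved with the stage as well. The summed level of 6 cortical excitatory neuron markers was 756.7 and 743.2 CPM in post-symptomatic HD cortex, 1254 and 1214 CPM in pre-symptomatic HD cortex and 1332 and 1367 CPM in WT cortex. All 6 were negative between the HD stages in cortex, with a median log2 fold change of -0.47, and 0 were called by edgeR. The 6 astrocyte markers summed to 2280 and 2495 CPM in post-symptomatic HD cortex, 4403 and 4413 CPM in pre-symptomatic HD cortex and 2967 and 3063 CPM in WT cortex. Between the HD stages in cortex 5 of them were negative and 1, Gfap, was positive (0.66, SE 1.33), with a median of -0.49. In striatum the 9 striatal neuron markers summed to 1382 and 1414 CPM after onset, and to 7117 and 7741 CPM in WT mice. The 8 microglia markers summed to 326.3 and 252.4 CPM in post-symptomatic HD cortex, 366.6 and 451.4 CPM in pre-symptomatic HD cortex and 391.2 and 418.9 CPM in WT cortex, and all 8 were negative between the HD stages there, with a median of -0.57. In that comparison 1 astrocyte marker, the glutamate transporter gene Slc1a2 (-1.02, adjusted p = 0.0424), and 1 microglia marker, Fcrls (-3.43, adjusted p = 0.0105), were called lower by edgeR. Endothelial markers stood between 126.9 and 217.7 CPM over the 12 libraries. In bulk tissue, fewer cells of a type and less RNA per cell cannot be told apart, and the part of cell composition in the levels of the p53 targets was not tested.

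Phlda3, an inhibitor of AKT signalling, and Sesn1, a sestrin that restrains mTORC1, had lower counts. Phlda3 stood in cortex at 17.6 and 16.2 CPM in WT mice of 8 and 13 weeks, 13.4 and 18.8 CPM in pre-symptomatic HD mice, and 11 and 10.8 CPM in post-symptomatic HD mice. Its post-symptomatic HD libraries were the lowest of the cortex, with a change between the stages of -0.57 (SE 0.46, adjusted p = 0.656 by edgeR). In striatum the post-symptomatic HD libraries, at 13.8 and 17.6 CPM, were above the WT library of that age at 8.87 CPM, a log2 fold change of 0.82 (SE 0.58, adjusted p = 0.580 by edgeR). The replicates of pre-symptomatic HD striatum, at 7.10 and 21.9 CPM, spanned all the other libraries.

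Sesn1 stood in striatum at 34.2 and 26.9 CPM in WT mice of 8 and 13 weeks, 21.9 and 14.2 CPM in pre-symptomatic HD mice, and 15.9 and 17.3 CPM in post-symptomatic HD mice. It was the 1 target with all 4 striatal HD libraries below both WT libraries (13.7% of genes). The log2 fold change against WT was -0.70 after onset (SE 0.32, adjusted p = 0.350 by edgeR) and -0.92 before it (SE 0.31). In cortex the 6 values overlapped, from 18.5 to 28.0 CPM. The reads of 9930024M15Rik, annotated over Sesn1 on the same strand, could not be told apart from those of Sesn1 where they overlap.

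Gadd45a and Gadd45b, stress sensors of the GADD45 family that act in repair and in MAP kinase signalling, were low, with 11 to 99 and 32 to 135 counts per library. Gadd45b stood in cortex at 9.76 and 11.4 CPM in WT mice of 8 and 13 weeks, 7.11 and 12.9 CPM in pre-symptomatic HD mice, and 4.58 and 3.46 CPM in post-symptomatic HD mice. The latter pair was the lowest of the cortex, and the change between the stages was -1.32 (SE 0.53, adjusted p = 0.319 by edgeR). Over both regions it was -0.85 (SE 0.40, adjusted p = 0.241 by edgeR). Gadd45a ranged from 1.28 to 8.37 CPM, with replicates of pre-symptomatic HD striatum at 1.28 and 5.04 CPM, and its change between the stages was -0.52 (SE 0.48, adjusted p = 0.577 by edgeR). E230016M11Rik lies on the other strand of Gadd45a.

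Gadd45b is also induced by neuronal activity, and 10 activity-induced genes were summed beside it. The sum was 559.6 and 400.2 CPM in post-symptomatic HD cortex, 486.9 and 1068 CPM in pre-symptomatic HD cortex, and 1138 and 1043 CPM in WT cortex of 13 and 8 weeks. In striatum the range was 178.1 to 458.1 CPM in HD mice and 956.3 to 1146 CPM in WT mice. All 10 were negative against WT mice over both regions at both ages, with median log2 fold changes of -1.58 at 13 weeks and -1.31 at 8 weeks. The part of neuronal activity in the Gadd45b levels was not tested.

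The tests are counted here over the 9 targets. Those between the HD stages in cortex and over both regions share the post-symptomatic HD cortical libraries with the Trp53 level that led to the choice of genes, and are not independent of it. Between the HD stages, 1 target was called over both regions (Zmat3), 0 in striatum alone (0.319% of genes called) and 0 in cortex alone by edgeR. At an unadjusted p under 0.05 there were 1 in striatum (12.4% of all genes) and 3 in cortex (13.6% of all genes), and DESeq2 called 0 in striatum and 1 in cortex, out of 380 and 465 genes it called in all. The cortical 3 were Cdkn1a, Zmat3 and Gadd45b, with negative log2 fold changes. Between pre-symptomatic HD and 8-week WT mice 0 targets were called by edgeR or DESeq2 (1.96% of genes called by edgeR), with 1 at an unadjusted p under 0.05, Cdkn1a (13.5% of all genes). Between post-symptomatic HD and WT striatum 0 were called by either tool (0.724% of genes called by edgeR), with 1 at an unadjusted p under 0.05, again Cdkn1a (14.5% of all genes). The median log2 fold change of the 9 targets between the HD stages was -0.41 over both regions and -0.57 in cortex, beside 0 for all genes in both. For pre-symptomatic HD against WT mice it was 0.05, beside -0.01 for all genes.

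Libraries that did not overlap were common among all genes, as so few libraries were compared. Between the HD stages in cortex, 1 of the 9 targets was higher after onset in both libraries, Mdm2 (26.6% of genes), and 5 were lower (27.5% of genes). In striatum 1 was higher, Mdm4 (17.3% of genes), and 1 was lower, Zmat3 (18.7% of genes). After onset, 3 targets were higher and 4 lower than the WT library in striatum (36.6% and 37.6% of genes). Before onset, 3 targets were higher and 2 lower than the WT library in cortex (37.5% of genes each), and 3 were higher and 2 lower in striatum (29.7% and 34.8% of genes).

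Beyond the members, 37 further p53 targets were listed by function, of which 32 passed the filter. They comprised 11 of 13 genes of cell cycle arrest and DNA repair, 12 of 14 of cell death and 9 of 10 of metabolism and secreted factors. Regulators that are also p53 targets, Rchy1 and Fbxw7 among them, were listed below and are not counted here. Between the HD stages over both regions 0 of the 32 were called by edgeR or DESeq2, which called 891 and 1684 genes in all, with 4 at an unadjusted p under 0.05 (22.2% of all genes). They were split evenly, with 16 positive and 16 negative values and a median of 0.03. By function the medians were -0.12 for arrest and repair, 0.24 for cell death and -0.04 for metabolism and secreted factors. Between pre-symptomatic HD and WT mice 0 were called by edgeR and 2 by DESeq2, out of 301 and 662 genes in all, with 5 at an unadjusted p under 0.05 (13.5% of all genes). In cortex alone 0 were called between the HD stages by edgeR and 1 by DESeq2, with 4 at an unadjusted p under 0.05 (13.6% of all genes). Of the p53, GADD45 and sestrin relatives, Trp73, Gadd45g and Sesn3 passed the filter and Trp63 did not. Between the HD stages over both regions 0 of these 3 were called by edgeR and 1 by DESeq2, with 1 at an unadjusted p under 0.05.

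Among 19 regulators of p53, 1 was called higher (1.83% of genes) and 1 lower (4.36% of genes) between the HD stages over both regions, and DESeq2 called 2. The former was Rchy1, a ubiquitin ligase that targets p53 and is itself induced by it. It stood at 31.4 and 43.0 CPM in striatum and 35.2 and 41.1 CPM in cortex after onset, and at 23.3 and 26.6 CPM in striatum and 25.1 and 19.9 CPM in cortex before onset. Its WT libraries stood at 33.4 and 33.5 CPM in striatum and 27.9 and 33.0 CPM in cortex. The HD values thus separated by stage in both regions, with the pre-symptomatic libraries below WT and the post-symptomatic ones around or above it. Rchy1 rose by a log2 fold change of 0.67 (SE 0.16, adjusted p = 0.0353 by edgeR). It was at -0.37 (SE 0.18, adjusted p = 0.408 by edgeR) in pre-symptomatic HD against 8-week WT mice.

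The gene called lower was Fbxw7, the substrate receptor of a ubiquitin ligase and itself a p53 target. It fell by 0.96 on the log2 scale over both regions (SE 0.14, adjusted p = 0.00501 by edgeR). In cortex it stood at 302 and 305 CPM after onset, 723 and 703 CPM before onset and 603 and 635 CPM in WT mice, a change of -1.24 between the HD stages (SE 0.16, adjusted p = 0.0159 by edgeR). Chek2 and Atm, kinases that activate p53 after DNA breaks, were at 0.53 (SE 0.60, adjusted p = 0.661) and -0.05 (SE 0.16, adjusted p = 0.907) between the HD stages by edgeR. Of the 19 regulators 16 had positive values, with a median of 0.19.

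**Figure D3:**
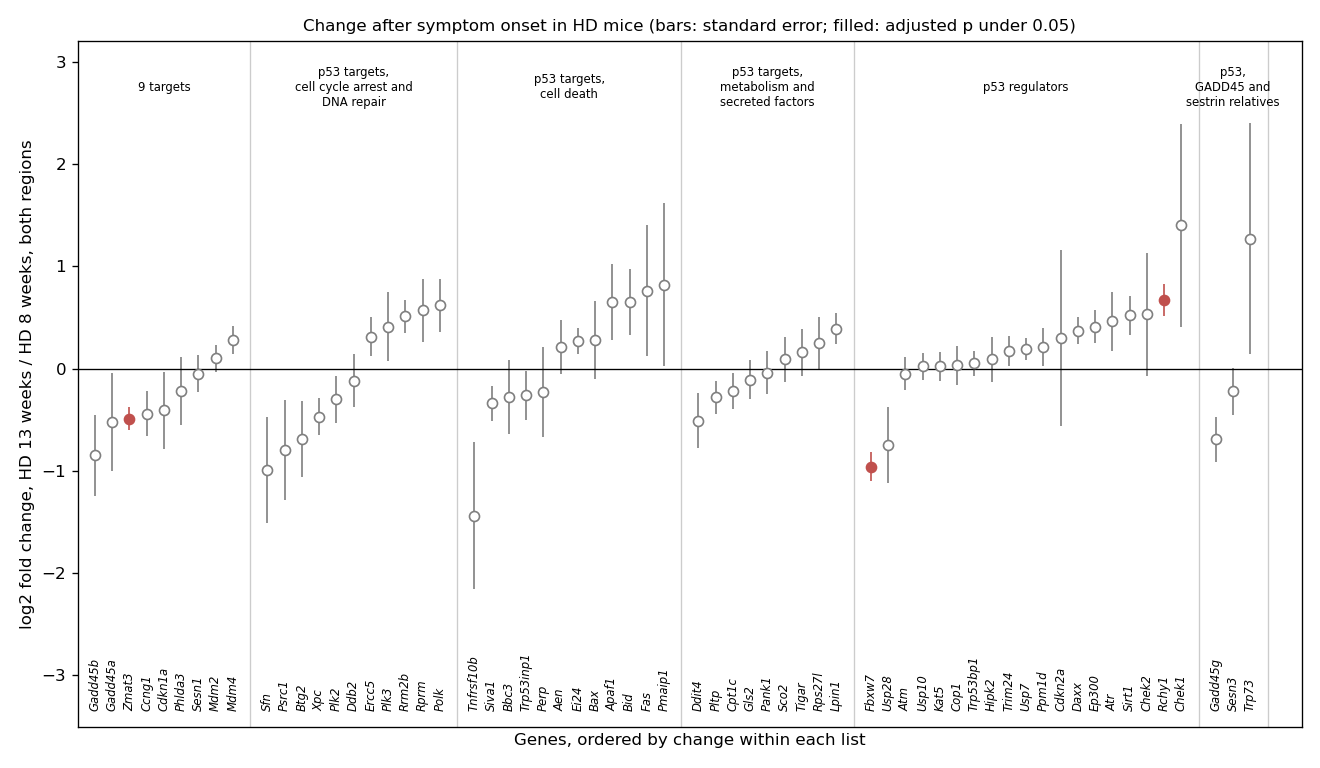
Log2 fold change of HD mice at 13 weeks over HD mice at 8 weeks, both regions, for the 9 targets and the other p53 lists, with bars for the standard error and filled points for an adjusted p under 0.05 by edgeR. Zmat3, Fbxw7 and Rchy1 are the filled points, and the other points of each target list lie on both sides of 0.

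Across the 12 libraries, the genes whose log2 CPM followed that of Trp53 most closely were Papd7 (Pearson r = 0.92), Mtmr1 (0.83), and Nsfl1c, Adam10 and Fbxo11 (0.80 each), out of 10776 genes with a mean of at least 5 CPM. Gadd45a was below that mean and not ranked, and none of the other 8 targets was among them. Over the same libraries the r of the targets with Trp53 ran from -0.39 for Mdm2 to 0.36 for Sesn1. Within the 6 cortical libraries it ran from -0.79 for Ccng1 to 0.53 for Sesn1, with Zmat3 at -0.69, Mdm2 at -0.60, Gadd45b at -0.56 and Cdkn1a at 0.00. Within the 6 striatal libraries it ran from -0.70 for Ccng1 to 0.89 for Gadd45b, with Mdm2 at 0.45, Zmat3 at 0.35, Sesn1 at 0.31 and Cdkn1a at 0.20, so that the sign differed between the regions for Mdm2, Mdm4, Zmat3 and Gadd45b. The points share depth scaling, region and genotype, and these r are descriptions. Papd7, which encodes a terminal nucleotidyltransferase, stood at 24.2 and 26.8 CPM in post-symptomatic HD cortex and at 16.4 to 21.5 CPM in the other 4 cortical libraries. In post-symptomatic HD striatum it stood at 16.2 and 22.1 CPM. Papd7 was picked by its r with Trp53 over these libraries, so nothing is read from this order.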

How the data were processed

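RNAseq was performed on 12 libraries of mouse striatum and cortex with a Lexogen QuantSeq kit, per the labels. The authors deposited raw counts per gene symbol, 1 table per library. The submitters’ processing notes name Bowtie2, bedtools and mm10, and the annotation, counting rule and strand setting are not given in the sources used here. Of 23282 gene rows, 44 repeated a symbol and were kept as separate rows. Total counts were 8814386 to 12091201, and intervals cover counting error only, since no molecular identifiers are given.

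The deposited counts were fitted over all genes by the robust quasi-likelihood test of edgeR 4.0.16 in R 4.3.3, after TMM scaling and filterByExpr (minimum count 10). Benjamini-Hochberg adjusted p-values were held against 0.05. The model for HD stage and region used the 8 HD libraries, and WT comparisons all 12. Single regions used a mean for each of the 8 groups. Because a WT group has 1 library, its spread is assumed to equal that of the HD groups. The study’s statistics (t-test and ANOVA) name no test across genes for RNAseq.

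The members and lists were chosen with earlier results of these data known. Named genes were the 10 members, up to 4 genes of each other p53 list with the lowest p among those called between the HD stages over both regions, and the 5 genes most correlated with Trp53. Wrap53, Chek2, Atm, Slc1a2, Fcrls and Gfap were named after their values were seen. Marker and response lists are given as counts and sums. As alternatives, each HD library was left out, a replicate block was added, the filter was dropped, and upper-quartile scaling or DESeq2 1.42.0 was used. Leaving out each WT library was added after seeing the data. On simulated data with 200 genes changed by a log2 of 1.5, edgeR recovered 82.0% among 14112 genes between the HD stages (6.82% of calls false), 68.5% among 14980 in pre-symptomatic HD against WT mice (4.20% false) and 53.0% among 14948 between the stages in cortex (7.02% false). DESeq2 recovered 91.0% in the first of these, with 18.4% of its calls false. The changed genes were drawn from the better covered ones. The largest change of a target in these comparisons was -1.32, for Gadd45b in cortex, so these rates do not apply to the targets. Loci are from GENCODE M21 (GRCm38) and promoters from RefSeq.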

Additional observations from a re-analysis of the deposited data

Results flagged for a closer look

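For 4 targets both HD libraries of striatum moved to one side of the WT library of their age and both of cortex to the other side. The value given is the mean log2 ratio of HD to WT in striatum minus that in cortex, and these differences were not tested. Such a split was shown by 2 of the 9 targets at each age, beside 14.4% of 15337 genes at 13 weeks and 18.8% at 8 weeks. At 13 weeks it was 1.35 for Cdkn1a, with means of 1.20 in striatum and -0.16 in cortex, where 1 library was at -0.01. At the same age it was 1.38 for Phlda3, with means of 0.81 and -0.57. At 8 weeks it was 0.54 for Ccng1, with means of 0.51 and -0.04, with 1 library of each region within 0.02 of the WT library. At that age it was -1.35 for Sesn1, with means of -0.96 in striatum and 0.39 in cortex. The striatal means at 8 weeks include replicate 2 of pre-symptomatic HD striatum, the library with high oligodendrocyte markers, in which Ccng1 was at 42.5 CPM against 21.8 CPM in replicate 1. Each ratio rests on 1 WT library, and Xist was high in both WT libraries of 13 weeks and low in both of 8 weeks.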

How the results depend on the processing

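Most of the single-gene values kept their sign and their side of the threshold, and 41 of 839 tested values changed sign, 0 of them for genes called in the main test. Most of these values were not called in the main test. Of the calls, that of Zmat3 was lost in 6 of the 8 fits without 1 HD library, and that of Mdm2 between regions in 7. With DESeq2 the number of genes called over both regions was 1684 between the HD stages, 2453 between regions in HD, 662 in pre-symptomatic HD against WT mice and 1799 in post-symptomatic HD against WT mice. By DESeq2 it was 380 between the stages in striatum and 465 in cortex, 12 for the difference of these changes, and 546 in striatum and 215 in cortex against 13-week WT mice. With no filter it was 195, 241, 1, 306 and 84 in the same order, and with upper-quartile normalization 25 and 58 between the stages in striatum and cortex. Of the 9 targets, DESeq2 called 2 between regions, 1 between the stages in cortex and 1 in post-symptomatic HD against WT mice, and without a filter edgeR called 2 between regions. The cause was not tested.

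Leaving out 1 HD library at a time gave 212 to 1516 genes called between the HD stages (0 to 2 targets), 653 to 2165 between regions (0 to 3 targets), 99 to 436 before onset against WT and 620 to 1807 after onset against WT (0 to 1 targets). By region it gave 0 to 1111 in striatum and 0 to 1233 in cortex between the stages (0 to 2 targets in cortex), 0 to 192 for their difference, and 1 to 1469 in striatum and 0 to 889 in cortex against 13-week WT mice. The highest counts of genes were all from fits without a replicate of pre-symptomatic HD striatum. Leaving out a WT library gave 0 to 202 genes called before onset, 0 without the striatal library of 8 weeks, and 29 to 1087 after onset, 29 without the striatal library of 13 weeks.

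Among log2 fold changes that changed sign when an HD library was left out, the range between the HD stages over both regions was -0.15 to 0.09 for Sesn1, -0.54 to 0.05 for Phlda3 and -0.82 to 0.05 for Gadd45a. Between regions it was -0.37 to 0.40 for Gadd45b and -0.05 to 0.54 for Phlda3. Between the stages in striatum it was -0.79 to 0.36 for Trp53, -0.19 to 0.35 for Mdm2, -0.09 to 0.72 for Cdkn1a, -0.69 to 0.28 for Ccng1, -0.49 to 1.13 for Phlda3, -0.41 to 0.22 for Sesn1, -1.65 to 0.32 for Gadd45a and -1.36 to 0.17 for Gadd45b. In cortex it was -0.09 to 0.26 for Mdm4 and -0.64 to 0.28 for Gadd45a. For the difference of these changes it was -0.23 to 0.31 for Mdm2, -0.88 to 0.08 for Ccng1, -0.22 to 0.41 for Sesn1, -0.42 to 1.54 for Gadd45a and -1.50 to 0.04 for Gadd45b. In striatum against 13-week WT mice it was -0.55 to 0.06 for Ccng1 and -1.43 to 0.11 for Gadd45b. Before onset against WT mice over both regions it was -0.80 to 0.02 for Gadd45a, -0.01 to 0.12 for Mdm4, -0.20 to 0.33 for Phlda3 and -0.40 to 0.01 for Gadd45b. Without the WT striatal library of 8 weeks that comparison gave 1.39 for Trp53, -0.10 for Ccng1, -0.19 for Phlda3, 0.36 for Sesn1, -0.04 for Zmat3 and 0.44 for Gadd45a, and without the cortical one -0.09 for Trp53, 0.66 for Ccng1, 0.48 for Phlda3 and 0.16 for Zmat3.

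The labels give HD replicates a number only, so the replicate block is an alternative and pairs no mice. In the HD groups it also follows Xist, low in replicate 1 and high in replicate 2. All WT libraries entered as replicate 1, though Xist was high in those of 13 weeks, so against WT the block does not match Xist. Same-numbered HD libraries deviated together weakly, with correlations from 0.01 to 0.20. With the replicate block, 1030 genes were called between the HD stages over both regions, 1750 between regions, 304 before onset against WT and 867 after onset against WT. By region the block gave 66 in striatum and 120 in cortex between the stages, 0 for their difference, and 87 in striatum and 14 in cortex against 13-week WT mice. Zmat3 stayed at -0.49 (adjusted p = 0.0356 by edgeR) and Mdm2 between regions at 0.51 (adjusted p = 0.0321 by edgeR) under the block, and Phlda3 before onset against WT turned to -0.26. Depth limits Trp53 and the GADD45 genes most.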
